A study of Homo sapiens with 18 samples.

Results

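The genes described here are the collagens, the laminins and 20 named matrix glycoproteins in MCF10A cells, a non-tumorigenic, immortalized line from human breast epithelium. Members were matched by gene symbol, and the set was chosen with earlier results of these data known. It took every symbol built as COL, a number, A and a number, and every symbol built as LAM, one of the letters A to C and a number. To these it added the 20 glycoproteins FN1, SPARC, TNC, THBS1, THBS2, NID1, NID2, HSPG2, AGRN, FBN1, FBN2, FBLN1, FBLN2, LTBP1, LTBP2, MATN2, ECM1, VCAN, LUM and POSTN. This gave 71 genes of 19401 listed in any of the 3 tables, namely 39 collagen genes, 12 laminin genes and the 20 glycoproteins. The CBFB, KO1 and KO2 tables listed 66, 64 and 66 of them, and 60 were in all 3. No row with the symbol COL3A1 or COL15A1 was found, so these genes were not analysed here.

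The 18 samples fell into 5 groups: CBFB KO (3 samples) with its own wild type (WT, 3 samples), and RUNX1 KO1 (4) and RUNX1 KO2 (4) with the WT of the RUNX1 experiment (4). CBFB is the partner of the DNA-binding RUNX transcription factors. The knockouts were made by CRISPR-Cas9, with 1 clone for CBFB and 2 for RUNX1, so for CBFB what is particular to the clone cannot be told apart from the loss of the gene. All groups were grown untreated in a medium with horse serum, insulin, EGF, hydrocortisone and cholera toxin.

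Each deposited table gives, for a gene, the authors' mean of normalized read counts over the knockout and WT libraries of that comparison together. It is 1 value per gene and table, with no spread and no separate level for knockout and WT. Values below are therefore the levels of these transcripts in knockout and WT cells pooled, no difference was tested, and no direction in a knockout relative to WT is given. The means of a table came from 6 libraries (CBFB) or 8 (KO1 and KO2), and summed over all genes to 20214400, 18050400 and 16467400. Size factors, which measure each library's depth relative to the others of its table, were not given. Inferred from the means of genes with 1 read in 1 library, they ranged from 0.657 to 1.18 (CBFB), 0.921 to 1.10 (KO1) and 0.562 to 1.29 (KO2). CBFB itself had means of 897, 1058 and 931 in the CBFB, KO1 and KO2 tables, and RUNX1 of 1606, 922 and 839. A pooled mean of the targeted gene does not check the labels.

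Epithelial cells sit on a basement membrane, a sheet built from a laminin network and a collagen IV network that perlecan, agrin and nidogens link together. A laminin is a trimer of an alpha, a beta and a gamma chain, and a collagen is a triple helix of alpha chains. Laminin-332 and the transmembrane collagen XVII are parts of the hemidesmosome of basal epithelium, and collagen VII forms the fibrils that anchor it to the tissue beneath. Fibrillar collagens such as I, III and V are known mainly from connective tissue, where fibroblasts make them.

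The pooled cells carried transcripts of laminin-332, collagens IV and XVII, agrin and perlecan, and few of the nidogens. COL1A2 and COL5A1 had means of 0.145 and 0.155 in the CBFB table and were not listed in the others. In such bulk samples fewer cells of a kind and less RNA per cell cannot be told apart. A mean of at least 100, called well measured here, was reached by 35 of the 66 members of the CBFB table (53.0%, against 58.9% of all genes), by 33 of 64 for KO1 (51.6% against 57.8%) and by 31 of 66 for KO2 (47.0% against 56.4%). Well measured in any table were 18 of the 39 collagens, 8 of the 12 laminins and 11 of the 20 glycoproteins, 37 members in all. Another 23 members stayed under a mean of 10 in every table that listed them. Members made up 1.13%, 0.876% and 0.780% of the summed means of the CBFB, KO1 and KO2 tables.

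**Figure D1:**
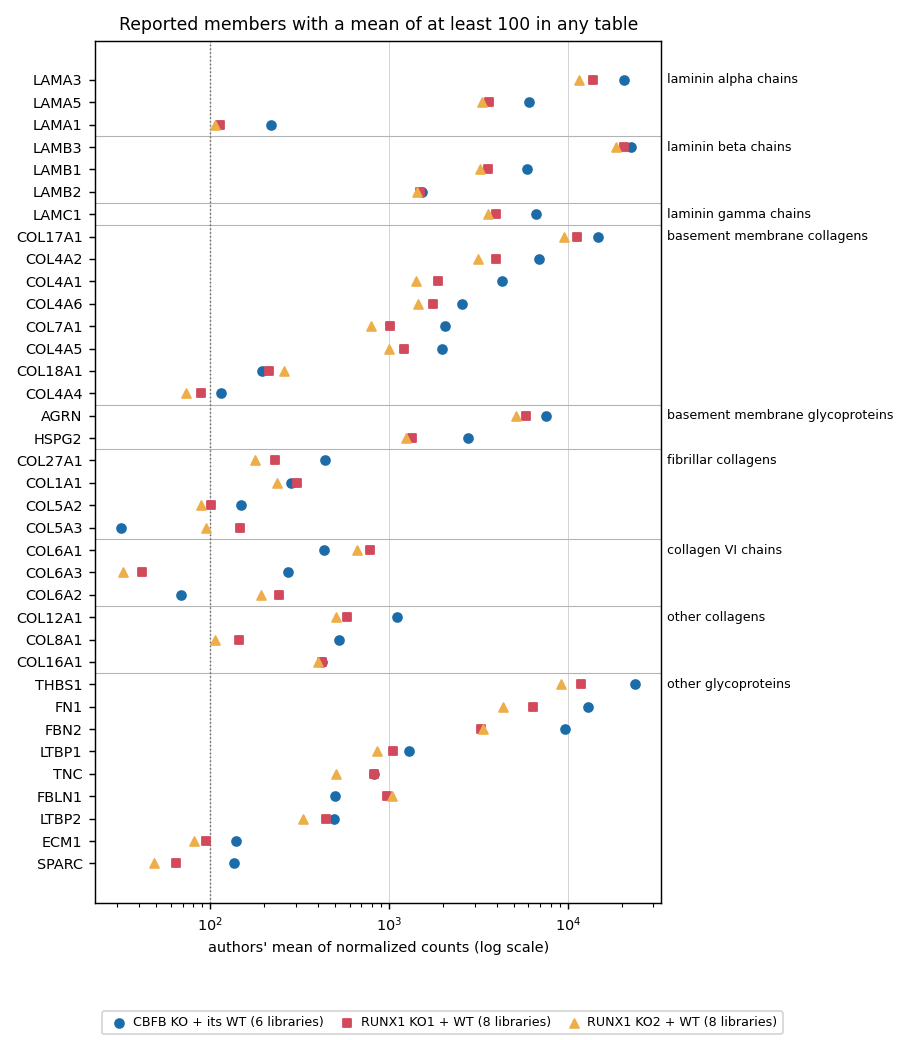
The authors' mean of normalized counts (log axis) for the members reported here with a mean of at least 100 in any table, by class. Circles, squares and triangles are the CBFB, KO1 and KO2 tables, each a mean over knockout and WT libraries without an error. LAMB3, THBS1 and LAMA3 are among the highest in each table, and COL6A3, COL8A1, COL6A2 and COL5A3 are among those lying far apart between the CBFB table and the others.

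Among the laminins, LAMB3 and LAMA3, the beta and alpha chains of laminin-332, were highly represented. LAMB3 had means of 22571, 20418 and 18531 in the CBFB, KO1 and KO2 tables. LAMA3 had 20544, 13831 and 11464. To compare genes within a table, each mean was divided by the length of the gene's longest annotated transcript and scaled so that the values of all genes of a table sum to 1000000, called the per-length level. On that scale LAMA3 and LAMB3 stood at 249 and 678 for CBFB, at 172 and 629 for KO1 and at 163 and 653 for KO2. LAMB3 transcripts were thus more abundant per length than those of LAMA3 in each table, by 2.72 times for CBFB and 3.66 times for KO1, although the assembled trimer holds 1 of each chain. With the median instead of the longest transcript length LAMB3 stood below LAMA3. LAMB3 ranked 186 among all genes of the CBFB table and 211 among those of the KO1 table by per-length level.

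The chains of the more widespread laminin-511 and laminin-521 were below LAMA3 and LAMB3 per length of the longest transcript, whereas by the median transcript LAMA5 (410, 269 and 275) and LAMC1 (409, 268 and 272) stood above LAMB3 (264, 262 and 266). LAMA5 had means of 6055, 3622 and 3313 in the CBFB, KO1 and KO2 tables, LAMB1 of 5887, 3559 and 3198, and LAMC1 of 6582, 3937 and 3575. Their proportions hardly moved between tables: the per-length level of LAMB1 over LAMA5 was 1.93, 1.95 and 1.91, and that of LAMC1 over LAMA5 was 1.57, 1.57 and 1.56. By the median transcript length both were slightly below LAMA5. The choice of length cannot change how such a proportion moves between tables. LAMB2, the beta chain that replaces LAMB1 in laminin-521, differed from the rest, with means of 1518, 1481 and 1421 that were close in all 3 tables. Its per-length level was 0.505 of LAMA5 in the CBFB table and 0.823 and 0.864 in the KO1 and KO2 tables. LAMA5 (11426 bases) is longer than LAMB1 (5766), LAMB2 (5674) and LAMC1 (7889). Ratios of the CBFB table to the others rose with transcript length, as described below, and these proportions were not corrected for that. LAMA1, an alpha chain known from early embryonic basement membranes, had 219, 113 and 107. LAMA2, the alpha chain of muscle laminin, had 44.2, 83.1 and 70.0. LAMA4, LAMB4 and LAMC3 stayed under 10.

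**Figure D2:**
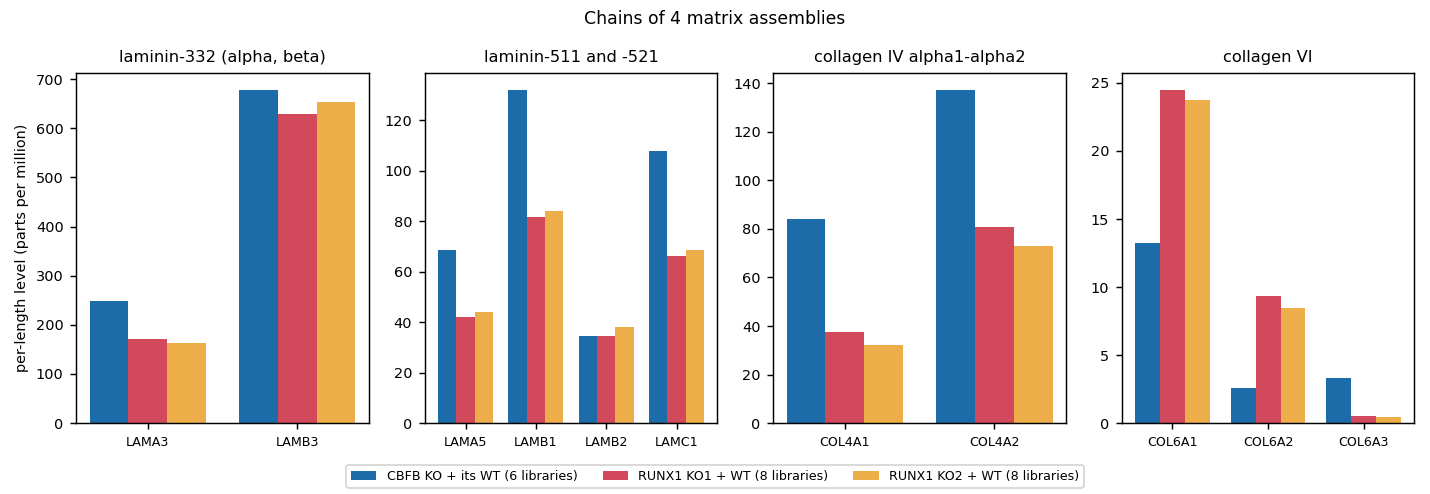
Per-length level (on a scale where all genes of a table sum to 1000000) of the alpha and beta chains of laminin-332, of the chains of laminin-511 and laminin-521, of the collagen IV alpha1-alpha2 network and of collagen VI, each panel with its own axis from 0. Bars are the CBFB, KO1 and KO2 tables, without error bars since each is 1 pooled mean. LAMB3 exceeds LAMA3 in each table, LAMA5, LAMB1 and LAMC1 keep their proportions, and COL6A3 is 3.29 in the CBFB table against 0.510 and 0.461 in the KO1 and KO2 tables.

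Among the basement membrane collagens, COL17A1 of the hemidesmosome had the highest means, 14697, 11234 and 9499. COL4A2 had 6894, 3964 and 3127 and COL4A1, its partner in the common collagen IV network, had 4297, 1869 and 1407. That network takes 2 alpha1 chains for each alpha2 chain, yet per length COL4A2 exceeded COL4A1 by 1.63, 2.16 and 2.27 times in the CBFB, KO1 and KO2 tables, and by 3.11, 4.11 and 4.31 times with the median transcript length. COL4A6 had 2540, 1764 and 1452 and COL4A5 had 1974, 1211 and 992. Per length COL4A6 stood at 1.24, 1.40 and 1.41 times COL4A5, an order that reversed with the median transcript length. The alpha3 and alpha4 chains, known from kidney glomeruli, had lower means than the other collagen IV chains, with COL4A4 at 115, 88.3 and 73.6 and COL4A3 at 9.60, 9.52 and 5.30. COL7A1 of the anchoring fibrils had 2049, 1006 and 789. COL18A1, which carries heparan sulfate, had 194, 214 and 257 and was, with FBLN1, one of the well-measured members highest in the KO2 table.

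The collagen IV genes lie in pairs that face away from each other, with the starts of both genes close together in RefSeq (GRCh38.p14): 127 bases apart for COL4A1 and COL4A2 on chromosome 13, 419 for COL4A4 and COL4A3 on chromosome 2 and 380 for COL4A6 and COL4A5 on chromosome X. Between the starts, the letters of 2 common promoter boxes, CCAAT and GGGCGG, were sought on both strands. Only the 250 bases before the start of the plus-strand gene (COL4A2, COL4A3 or COL4A5) were read. In the COL4A4 and COL4A3 pair and the COL4A6 and COL4A5 pair, the stretch nearest the other start was thus not searched. The windows below show what was found in the bases read, on the plus strand with the box in capitals. In the COL4A4 and COL4A3 pair the second window holds GGGCGG on the minus strand, written CCGCCC. In the COL4A6 and COL4A5 pair a CCAAT on the minus strand lies in the same window in lower case.
COL4A1 and COL4A2, chr13:110307167-110307196: gggccgagctccCCAATttgttggcgctgc
COL4A1 and COL4A2, chr13:110307207-110307236: ccggcggtgcgcGGGCGGcgcctcaaaggg
COL4A4 and COL4A3, chr2:227164495-227164524: gagggggtatgaGGGCGGgacctgagccac
COL4A4 and COL4A3, chr2:227164589-227164618: gccctacaaaacCCGCCCcggccgagtggc
COL4A6 and COL4A5, chrX:108439588-108439617: acaCCAATgagattggaactgagcctagaa
Over the RefSeq promoters, read from 250 bases before to 50 after a start, CCAAT was in 34.6% of all 35116 and in 28.6% of the 70 that belong to members, and GGGCGG in 45.0% and 61.4%. The 2 genes of a pair share this stretch, but their transcripts were not at equal levels: per length COL4A4 was 9.68, 7.50 and 11.2 times COL4A3 by the longest transcript and 1.63, 1.27 and 1.89 times by the median transcript.

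TGTGGT, a hexamer that RUNX proteins bind, was sought in the same windows on both strands. Of the 71 members 54 had a promoter in the table, with 70 windows between them. The hexamer was in 3 of the 70 (4.29%; COL11A2, LTBP1 and NID2) and in 4591 of all 35116 (13.1%). Among windows of members with a mean of at least 100 in a table, 1 of 36 held it. That window was of LTBP1, a latent TGF-beta binding protein with means of 1289, 1046 and 856, and it held the hexamer at 2 places on the plus strand, 94 and 56 bases before the annotated start. The hexamer is in capitals.
LTBP1, chr2:33134490-33134519: aaagtgcagcatTGTGGTtagtaatcccac
LTBP1, chr2:33134528-33134557: ctcgacttcaaaTGTGGTtttggagtgcat
A match is only a match of letters, and sites with other letters or outside these windows were not sought. A low share of this hexamer is therefore not read as a lack of RUNX sites.

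The proteins that tie the basement membrane networks together were unequally represented. AGRN (agrin) had means of 7543, 5802 and 5111, and HSPG2 (perlecan) had 2756, 1341 and 1246. Both nidogens were low. NID2 had 12.5, 6.51 and 5.45, and NID1 was listed at 0.136 and 0.127 in the KO1 and KO2 tables and was not listed in the CBFB table.

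Of the fibrillar collagens COL1A1, the alpha1 chain of collagen I, was well measured, with 284, 305 and 236, while COL1A2, the chain it pairs with in connective tissue, was listed at 0.145 in the CBFB table and not listed in the others. COL5A1 was listed at 0.155 in the CBFB table alone, whereas COL5A2 had 148, 101 and 88.4 and COL5A3 had 31.7, 146 and 94.7. COL27A1, a fibrillar collagen of cartilage, had 436, 231 and 177. COL2A1 did not exceed 10.6, and COL11A1, COL11A2 and COL24A1 did not exceed 6.78. Among other collagens COL12A1, which associates with fibrils, had 1100, 582 and 504. COL16A1 had 419, 423 and 402. COL8A1, a short-chain collagen, had 521, 144 and 106, while its relative COL8A2 had 2.80, 20.0 and 7.35. COL22A1 reached 25.1 and COL13A1 12.6, and COL10A1, COL14A1, COL20A1, COL21A1, COL23A1, COL26A1 and COL28A1 did not exceed 1.30.

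Collagen VI forms beaded microfilaments from 3 different chains, and its chains stood in different proportions in the tables. COL6A1 had means of 433, 783 and 664 in the CBFB, KO1 and KO2 tables. COL6A2 had 68.7, 244 and 193. COL6A3 had 273, 41.3 and 32.6. The first pair was lowest in the CBFB table and COL6A3 was highest there. Per length COL6A3 made up 17.3% of these chains in the CBFB table and 1.49% and 1.41% in the KO1 and KO2 tables, COL6A2 made up 13.5%, 27.2% and 25.9%, and COL6A1 69.3%, 71.3% and 72.7%. With the median transcript length COL6A3 made up 10.7%, 0.931% and 0.874% and COL6A2 6.34%, 12.9% and 12.2%, so the shares were lower. The choice of length acts alike on a chain in every table. It cannot change how the ratio of a chain to COL6A1 differs between tables, so it is no check of that difference. COL6A3 (10749 bases) is longer than COL6A1 (4238) and COL6A2 (3461), and these shares were not corrected for the rise of CBFB table ratios with length described below. COL6A5 and COL6A6 were listed under 1 in the CBFB table and in no other.

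Among the glycoproteins THBS1 (thrombospondin 1) had the highest means, 23784, 11753 and 9133. FN1 (fibronectin), which integrins assemble into fibrils, had 12902, 6346 and 4339. FBN2 (fibrillin 2), a protein of microfibrils, had 9579, 3238 and 3339, and its relative FBN1 had 26.4, 10.3 and 10.3. TNC (tenascin C) had 821, 825 and 503, so the KO2 table alone was low. FBLN1 (fibulin 1) had 496, 972 and 1042 and was lowest in the CBFB table. LTBP2 had 494, 443 and 329, ECM1 had 140, 95.2 and 80.9, and SPARC, a collagen-binding protein, had 135, 64.1 and 48.4. MATN2 (matrilin 2) had 12.5, 33.1 and 37.7, and VCAN (versican) 42.0, 33.3 and 27.2. THBS2, LUM, POSTN and FBLN2 did not exceed 3.13.

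The KO1 and KO2 tables share the WT of the RUNX1 experiment, so a ratio of their means compares the clones diluted by WT. The sharing was checked on genes with 1 read in 1 library and none elsewhere, whose means take 1 fixed value per library: 4 libraries were found in both tables, with 265 of 265 such genes matched. Ratios were centred by the median ratio of the genes well measured in both tables (0.931 for KO2 over KO1), and members whose mean reached 10 in both were counted. A 1.5-fold difference between the tables is what a clone 2-fold above WT gives when the other clone is at the WT level, and a clone 2-fold below WT gives less. None of the 44 members was higher in the KO2 table by 1.5-fold (0.739% of all genes), and 2 were lower, COL9A3 and TNC (4.55%, against 0.229% of all genes). Being lower in the KO2 table by less than that was common: 35 of the 44 ratios were below 1, with a median of -0.16 on the log2 scale, where the median of all genes was 0.00.

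TNC had the ratio 0.655 and COL9A3, a cartilage collagen chain with means of 13.4, 19.9 and 11.3, the ratio 0.609. The next were COL5A3 at 0.695 and FN1 at 0.735, just inside the 1.5-fold line. With equal numbers of knockout and WT libraries, 2 times a mean is the sum of the knockout and WT levels, so the difference between the clones can be had without WT. TNC in KO1 exceeded TNC in KO2 by 569 normalized counts, or 584 when the tables were scaled on the shared WT libraries, and WT was at most 1081. For FN1 the difference was 3367 with WT at most 9325. For COL9A3 it was 15.5, with WT at most 24.2. The spread between libraries is unknown, so whether these differences exceed it was not tested. KO2 over KO1 ratios fell with transcript length, from a median of 1.16 in the shortest of 10 equal length classes of genes to 0.942 in the longest. With ratios centred within length classes COL9A3 remained past 1.5-fold and TNC was at -0.53 (log2), short of it, and the members' median was -0.10 in place of -0.16.

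The CBFB table shares no library with the others, so the knocked-out gene, the WT libraries and the experiment cannot be told apart in its ratios to them. Of 44 members 13 were higher than in the KO1 table by 1.5-fold (29.5%, against 8.6% of all genes) and 8 were lower (18.2%, against 7.1%). Of 43 members 15 were higher than in the KO2 table (34.9%, against 12.2%) and 8 lower (18.6%, against 14%). These 2 comparisons share the CBFB libraries and the WT of the RUNX1 experiment. Their centring factors were 1.17 and 1.27, so the table means differed by 0.23 and 0.35 (log2) for the median gene and the ratios are relative to that. The members' median was 0.23 against the KO1 table and 0.42 against the KO2 table, where centring puts all genes near 0.

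Ratios rose with transcript length over all genes, and members are long. The median ratio of the CBFB table to the KO1 table was 0.811 in the shortest of the 10 length classes and 1.31 in the longest, and for the KO2 table it was 0.719 and 1.39. The median member past the filter had a longest transcript of 6727 bases, against 3812 for all well-measured genes. With ratios centred within length classes, 6 members were higher and 8 lower than in the KO1 table (5.78% and 6.48% of all genes), and 6 were higher and 8 lower than in the KO2 table (8.16% and 10.5%). The members' medians then were -0.03 and 0.07, so the upward shift of the members as a group was nearly gone.

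**Figure D3:**
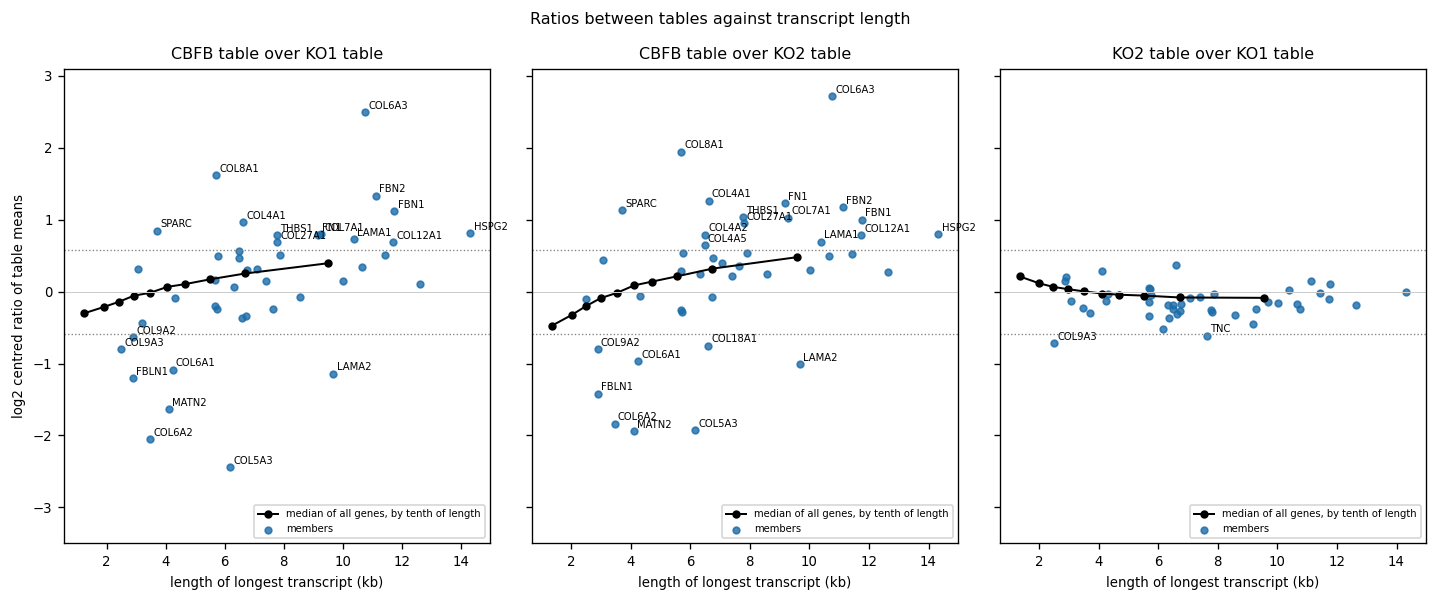
Log2 centred ratio of table means against the length of the longest transcript (kb), for the CBFB table over the KO1 table, the CBFB table over the KO2 table and the KO2 table over the KO1 table. Blue points are the reported members whose mean reached 10 in both tables, named where past 1.5-fold (dotted lines), and black points are medians of all well-measured genes in each of 10 length classes. The black line rises in both CBFB panels and falls slightly in the third, and COL6A3, COL8A1, COL5A3 and COL6A2 lie far from it.

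Past 1.5-fold higher in both comparisons, with or without length taken into account, were 5 members. The share of all genes past 1.5-fold in both was not counted. Since the comparisons share libraries, being past it in both is not independent evidence. COL6A3 was 5.64 times its KO1 table level and 6.59 times its KO2 table level after centring. COL8A1 was at 3.08 and 3.86 times and FBN2 at 2.52 and 2.26 times. COL4A1 was at 1.96 and 2.40 times and SPARC at 1.80 and 2.20 times. They belong to different structures: a microfilament chain, a short-chain collagen, a microfibril protein, a basement membrane chain and a collagen-binding glycoprotein. COL12A1, COL27A1, COL7A1, HSPG2, LAMA1 and THBS1, with ratios between 1.61 and 2.05, were past it in both with the overall centring and in neither once length was matched. FBN1, at 2.17 times its KO1 table level, then stayed past it in that comparison alone, and FN1 at 1.73 and 2.34 against the KO2 table alone. COL4A2 (1.48 and 1.73) and COL4A5 (1.39 and 1.57) were past it against the KO2 table with the overall centring alone.

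Lower in the CBFB table under either centring, in both comparisons, were COL5A3, COL6A1, COL6A2, FBLN1, LAMA2 and MATN2. Here too the share of all genes lower in both was not counted. COL5A3 was at 0.185 of its KO1 table level and 0.263 of its KO2 table level. COL6A2 was at 0.240 and 0.280, and COL6A1 at 0.472 and 0.513. MATN2 was at 0.323 and 0.261, FBLN1 at 0.435 and 0.374 and LAMA2 at 0.453 and 0.497. COL9A2, a cartilage collagen chain with means of 40.9, 54.0 and 55.8, was at 0.645 and 0.576. COL18A1 was at 0.775 and 0.594 and COL9A3 at 0.575 and 0.935, each past 1.5-fold in one comparison with the overall centring. Once length was matched, COL18A1 was past it in both, COL9A2 against the KO2 table alone and COL9A3 against the KO1 table alone. The laminin-332 chain LAMB3, at 0.943 and 0.959, and LAMB2, at 0.874 and 0.840, were near the other tables.

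Genes for the processing of collagen (modifying and crosslinking enzymes, proteases, chaperones and their helpers) were a list of 25. With the overall centring 5 of the 22 past the filter were higher in the CBFB table than in the KO1 table and 1 was lower (8.6% and 7.1% of all genes), and 5 of 21 were higher and 3 lower than in the KO2 table (12.2% and 14%), the 3 lower being no more than that background. TLL1, a protease that processes procollagen, had means of 521, 150 and 122 and ratios of 2.96 and 3.35. LOX, which crosslinks collagen, had ratios of 1.96 and 1.92 and LOXL2 of 1.61 and 1.65, while LOXL1 had 0.378 and 0.385. SERPINH1, the collagen chaperone, was at 0.956 and 0.969. Of these genes 0 of 21 were past 1.5-fold between the KO1 and KO2 tables. Of all genes 0.739% were higher and 0.229% lower in the KO2 table, so 0 in a list of this size is near that share.

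Receptors of the matrix were a list of 18, of which 4 of 17 were higher in the CBFB table than in the KO1 table and 6 of 17 than in the KO2 table, with 0 lower in both (8.6% and 12.2% of all genes were higher, 7.1% and 14% lower). ITGA2, the collagen-binding integrin chain, had means of 4477, 1650 and 1163 and ratios of 2.31 and 3.03. ITGA6, the laminin-binding chain of the hemidesmosome, was at 1.52 and 1.89, and ITGA5, the fibronectin-binding chain, at 1.57 and 1.75. ITGB6 was the 1 receptor of 17 past 1.5-fold between the clones' tables, lower in the KO2 table at 0.664 (0.229% of all genes were lower and 0.739% higher). Length was not matched for these lists.

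The markers of the labelled cell type were present. KRT5, a basal keratin, had means of 87894, 101688 and 95221, and all 6 basal epithelial markers in the CBFB and KO1 tables and the 5 listed in the KO2 table were at 100 or above. Their levels differed between tables beside the members: KRT17 in the CBFB table was at 0.187 of the KO1 table and 0.121 of the KO2 table, and EGFR at 2.10 and 2.39. KRT14 was at 0.369 of the KO1 table. It had a mean of 9515 in the KO1 table and was not listed in the KO2 table, although both hold the same WT libraries. Not being listed is therefore not read as being low. Of the 5 epithelial markers 4 were at 100 or above in each table, the other being KRT19. In the CBFB table KRT8 was at 0.607 of the KO1 table and 0.437 of the KO2 table, and KRT18 at 0.904 and 0.639. The part of these marker differences in the members' ratios was not tested. Of the 7 fibroblast markers, COL1A2, DCN, LUM, PDGFRB and THY1 did not exceed 7.34, while FAP had 1475, 1341 and 1203 and PDGFRA had 633, 554 and 466. The 3 endothelial markers stayed under 1, and of the leukocyte markers PTPRC and CD3E did too, with CD14 at 142, 128 and 141.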

How the data were processed

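RNA-seq of 18 MCF10A samples was deposited as 3 tables, 1 per knockout comparison. Per the labels the authors used Trimmomatic, STAR, hg19 and DESeq2. The read counter, strand setting and annotation are not given in the sources used here. The labels name an mRNA kit, the methods rRNA removal. The deposited signal used is the authors' mean of normalized counts over knockout and WT libraries. The other 5 measurement columns hold the authors' own comparison of knockout with WT (log2 fold change, its SE, test score, p-value, adjusted p-value) and were not used. Genes were joined by Entrez ID. Lengths came from GENCODE release 29 (longest transcript), promoters from RefSeq GRCh38.p14. Ratios of means were divided by their median over genes whose mean reached 100 in both tables, with a filter of 10 and a fold of 1.5. This step was tested for KO2 over KO1 on simulated counts whose libraries differed by counting error alone. For calls past the fold the test required recovery of simulated rises, but not of falls such as those of COL9A3 and TNC. That simulation did not cover length-matched centring, per-length levels or the bounds on WT. Tables were normalized separately. Members and lists (matrix processing, matrix receptors, cell type markers) were chosen with earlier results of these data known. By rule, members with a mean of at least 100 in any table or past the fold were named with values, and the rest were covered by counts and ranges, some of them named so that each class is accounted for. In RefSeq 9 members have an antisense gene (COL18A1, COL1A2, COL4A2, COL5A1, LAMA4, LAMA5, LAMC1, THBS2 and VCAN), whose reads cannot be told apart from theirs without strand. Python 3.11.15, pandas 2.3.3 and numpy 2.4.6 were used. The values of 1 member are not reported here.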

Additional observations from a re-analysis of the deposited data

How the results depend on the processing

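The means carry no replicate spread, so leaving out a library was not possible. No paired analysis was possible because the tables hold 1 pooled mean per gene and no result came from a test. Reads behind low members limit their ratios: COL9A3 rested on about 159 reads for KO1 and 90.2 for KO2, a counting error of 7.93% and 10.5%, which is counting error only.

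At a minimum mean of 1000 in place of 100, 20, 19 and 17 members of the CBFB, KO1 and KO2 tables passed. Members higher in the KO2 than in the KO1 table numbered 1 without the filter on low means and 1 at the lower fold tried, in place of 0. Those lower, 2 in the report, numbered 1 with tables scaled to the same total, with a minimum mean of 100 in both, with a pseudocount of 10 and with length-matched centring, 5 without the filter, 8 at the lower fold tried and 0 at a fold of 2. Members higher in the CBFB than in the KO1 table, 13 in the report, numbered 20 at the lower fold tried, 4 at a fold of 2 and 6 with length-matched centring, and those lower, 8, numbered 13 without the filter and 2 with a mean of at least 100. Members higher in the CBFB than in the KO2 table, 15, numbered 29 without centring, 24 at the lower fold tried, 9 at a fold of 2 and 6 with length-matched centring, and those lower, 8, numbered 16 without the filter, 3 with a mean of at least 100 and 5 at a fold of 2. Apart from length-matched centring, the shares of all genes at these other settings are not given. The counts at those settings therefore do not show whether members stand out from all genes. Without centring, the median gene well measured in both tables was itself 1.27 times as high in the CBFB as in the KO2 table. Length-matched centring and scaling on the shared WT libraries were chosen after seeing the data.

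Chain proportions depended on the length used. With the median instead of the longest transcript, COL4A6 over COL4A5 was 0.187, 0.211 and 0.212 in the CBFB, KO1 and KO2 tables, LAMB3 over LAMA3 was 0.507, 0.682 and 0.746, LAMB1 over LAMA5 was 0.940, 0.951 and 0.934, and LAMC1 over LAMA5 was 0.998, 0.998 and 0.990, each the reverse of the order given above. With coding length none of these orders was reversed.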
